A study of Drosophila melanogaster with 84 samples.

Results

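In the abdominal fat body of wild-type flies kept at 25°C on a diet of 15% sucrose and yeast, the hours around lights-on were compared with the hours around lights-off. Of the 84 libraries of the series, 12 belong to this comparison. They are 6 dawn libraries, from zeitgeber times (ZT, hours after lights-on) 22, 24 and 2, and 6 dusk libraries, from ZT10, ZT12 and ZT14, with 2 replicates at each time. The flies were mated females of the strain w1118, which the study's methods call Iso31, about 3 days old when entrainment began, held for 5 days in 12 h of light and 12 h of darkness, and sampled on day 5. Each library held fat tissue attached to the abdominal epidermis, pooled from 10 flies. The same hours were available at 18°C, on the 5% sucrose and yeast diet at 25°C, and, without ZT24 and ZT12, in Clk-Jrk mutants backcrossed 7 times to w1118, on the 15% diet at 25°C. Clk-Jrk flies carry a mutant form of Clock, the activator of the circadian loop.

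The fly clock is a feedback loop of transcription. The activators Clock and Cycle switch on period and timeless, whose proteins return to block them, and also vrille and Pdp1, which act back on Clock. Clock and Cycle drive their direct targets most strongly in the evening and early night, whereas Vrille holds back Clk and other genes during the night. The fat body, which serves flies as liver and fat store, has a clock of its own, and feeding cues also reach its genes.

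Dawn and dusk lie 12 h apart and each span light and darkness, but they are not balanced for light. Taking ZT24 as dark and ZT12 as light, the phases that precede them, 2 of the 3 dawn hours were dark and 2 of the 3 dusk hours light, so light is partly confounded with the comparison. The study used a pair of incubators with opposite light schedules, and the labels do not say which incubator a library came from. The values are TPM, each transcript's share of a library after correction for its length, and they keep no read depth. Between 12153 and 14040 features were above 0 in a library, and the 20 most abundant took 24.3% to 32.9% of the total. The difference, dawn minus dusk, is given on the log2(TPM + 1) scale with its standard error (SE), from limma, fitted to the 6909 features with a median TPM above 5 at 25°C on the 15% diet, with a term for the replicate. This scale understates changes of low genes. Nothing in the labels says that replicates came from separate cultures, so the p-values measure the spread between these libraries.

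Markers of tissues that the dissection removes did not stay level. The summed TPM of 12 ovary and eggshell markers ranged from 1160 to 5713 at dawn and from 323 to 1754 at dusk, and none of the 12 was at 0 throughout either group. The sum of 11 midgut markers ranged from 27.2 to 424 at dawn and from 22.7 to 8174 at dusk. The sum of 6 Malpighian tubule markers ranged from 70.6 to 231 at dawn and from 59.2 to 188 at dusk. Of 5 tested tubule markers 4 were higher at dawn and 1 at dusk, with a median difference of 0.35. The summed fat body markers were 23736 to 54707 TPM at dawn and 24420 to 57229 at dusk. Of 7 tested oenocyte markers 6 were higher at dusk and 1 at dawn, with a median difference of −0.22. All 14 tested muscle markers were higher at dusk, with a median of −0.20. Without replicate 1 the medians were −0.14 for oenocyte and 0.03 for muscle markers. What these tissues contribute to the differences below was not tested beyond a fit with the ovary marker sum as a covariate. That sum itself leaned to dawn, so this fit cannot separate ovary tissue from the hour. A call or count lost in it does not show what ovary tissue accounts for. In bulk tissue, fewer cells of a type and less RNA per cell cannot be told apart.

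Across all features the median difference was 0.13, and 75.2% of features were higher at dawn. Scaling the libraries by the median of ratios moved that median to 0.0056, so small differences are best read against 0.13. The median itself was 0.08 without replicate 1, 0.18 without replicate 2 and −0.06 with the ovary marker covariate, and over the 6 matched pairs of libraries it ran from −0.09 (ZT22 against ZT10, replicate 1) to 0.34 (ZT2 against ZT14, replicate 1). At adjusted p below 0.05 (limma, Benjamini-Hochberg over the 6909 features), 3 genes were higher at dawn, 0.0434% of those tested, and 2 were higher at dusk, 0.0289%. After scaling the split was 3 and 1. At an unadjusted p below 0.05 the counts were 397 at dawn (5.75%) and 215 at dusk (3.11%), and after scaling 139 (2.01%) and 390 (5.64%). The larger count at this threshold was thus at dawn before scaling and at dusk after it.

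**Figure D1:**
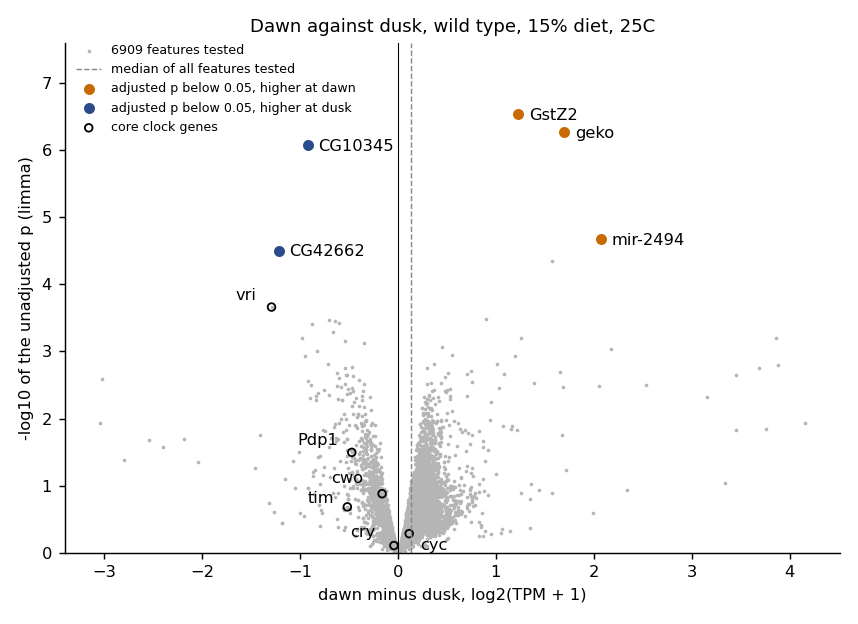
Each point is a feature tested; the x axis is dawn minus dusk on the log2(TPM + 1) scale and the y axis −log10 of the unadjusted limma p. GstZ2, geko and mir-2494 lie apart on the dawn side and CG10345 and CG42662 on the dusk side, vri at −1.29 is the nearest core clock gene, and the dashed line marks the median of 0.13.

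The 3 dawn genes were GstZ2, geko and mir-2494, and the 2 dusk genes were CG10345 and CG42662. Each separated all 6 dawn from all 6 dusk libraries. Over all features tested, 23 had every dawn library above every dusk library (0.333%) and 15 the reverse (0.217%).

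GstZ2 encodes a zeta-class glutathione S-transferase, a class whose mammalian member isomerises maleylacetoacetate in tyrosine breakdown. It lies on 3R at 9456815 to 9460652 (minus strand, BDGP6). In replicates 1 and 2 it was at 46.7 and 37.0 TPM at ZT22, 46.8 and 40.8 at ZT24, and 37.7 and 35.6 at ZT2. At dusk it was at 25.5 and 14.2 TPM at ZT10, 19.2 and 12.5 at ZT12, and 18.7 and 13.6 at ZT14. Every dawn library was thus above the highest dusk library, and replicate 1 was above replicate 2 at all 6 hours. GstZ2 averaged 40.8 ± 4.94 TPM (SD, n = 6) at dawn and 17.3 ± 4.90 at dusk (n = 6), 2.36-fold higher at dawn, with a log2 difference of 1.22 (SE 0.12; limma adjusted p = 0.00189).

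The gene geko, known from work on olfaction, lies on 3L at 18139402 to 18145418 (plus strand) and shares no exon with another gene. Its dawn values were 47.2 and 42.9 TPM at ZT22, 45.7 and 42.6 at ZT24, and 51.0 and 38.9 at ZT2. At dusk it was at 20.4 and 15.7 TPM at ZT10, 8.39 and 11.4 at ZT12, and 14.4 and 10.9 at ZT14. The dawn libraries lay close together, and both ZT12 libraries were among the lowest at dusk. The means were 44.7 ± 4.19 and 13.5 ± 4.26 TPM (SD, n = 6 each), 3.31-fold higher at dawn, with a log2 difference of 1.70 (SE 0.17; limma adjusted p = 0.00189).

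The feature mir-2494 is the annotated locus of a microRNA hairpin, 117 bases on 3R at 16618766 to 16618882 (plus strand), inside CG17560, with which it shares 62 of its bases on the same strand. Mature microRNAs have no poly(A) tail, and these libraries were poly(A) selected. Reads over the shared bases cannot be assigned with certainty to either gene. The locus ranged from 62.1 to 125 TPM at dawn and from 8.57 to 34.7 at dusk, and no dusk library reached the lowest dawn library. The means were 84.6 ± 22.1 and 20.8 ± 9.82 TPM (SD, n = 6 each), with a log2 difference of 2.07 (SE 0.30; limma adjusted p = 0.0370). Its host CG17560, a fatty acyl-CoA reductase family gene, was named after its values were seen. CG17560 had means of 772.5 and 496.2 TPM and a log2 difference of 0.72 (SE 0.26; limma adjusted p = 0.501), which did not pass.

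CG10345 is a member of the CD36 family of scavenger receptors, proteins that take up lipids and lipoproteins. It lies on 3R at 16597073 to 16604861 (minus strand), 13905 bases from mir-2494. At dawn it was at 6.54 and 6.20 TPM at ZT22, 4.58 and 4.77 at ZT24, and 5.34 and 5.43 at ZT2. At dusk it was at 12.4 and 10.7 TPM at ZT10, 11.02 and 12.1 at ZT12, and 10.7 and 10.5 at ZT14. Both groups were tight and a wide gap lay between them. CG10345 overlaps CG14892 on the other strand by 169 exon bases, which counting without strand cannot tell apart, and CG14892 was listed at 0.08 to 0.80 TPM. The means were 5.48 ± 0.77 and 11.2 ± 0.80 TPM (SD, n = 6 each), 2.05-fold higher at dusk, with a log2 difference of −0.92 (SE 0.10; limma adjusted p = 0.00195).

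CG42662, a protein-coding gene on 2R, ranged from 5.31 to 10.7 TPM at dawn and from 14.2 to 30.0 at dusk. The means were 8.12 ± 1.95 and 20.3 ± 5.47 TPM (SD, n = 6 each), 2.50-fold higher at dusk, with a log2 difference of −1.22 (SE 0.19; limma adjusted p = 0.0436). All of its exon bases are shared with CG30080 and CG46433, which were listed at 0 to 0.16 and 0.05 to 0.27 TPM in these libraries, so the division of reads among the 3 is the authors' estimate.

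GstZ2, geko and CG10345 were called in all 12 fits that each left out a single library. In contrast, mir-2494 was called in 3 of these and CG42662 in 1, with adjusted p up to 0.132 and 0.138. With the ovary marker sum as a covariate none of the 5 was called (limma, adjusted p 0.137 for GstZ2, 0.207 for geko and CG10345, 0.340 for mir-2494 and 0.378 for CG42662). The differences in that fit were 1.32 for GstZ2, 1.72 for geko, 1.90 for mir-2494, −0.86 for CG10345 and −0.93 for CG42662. Because the covariate overlaps with the window, that fit is less precise, and a lost call alone says little. With light or dark as a covariate GstZ2, geko and CG10345 were called, whereas mir-2494 and CG42662 were not (limma adjusted p = 0.0595 each), with differences of 2.15 and −1.28.

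**Figure D2:**
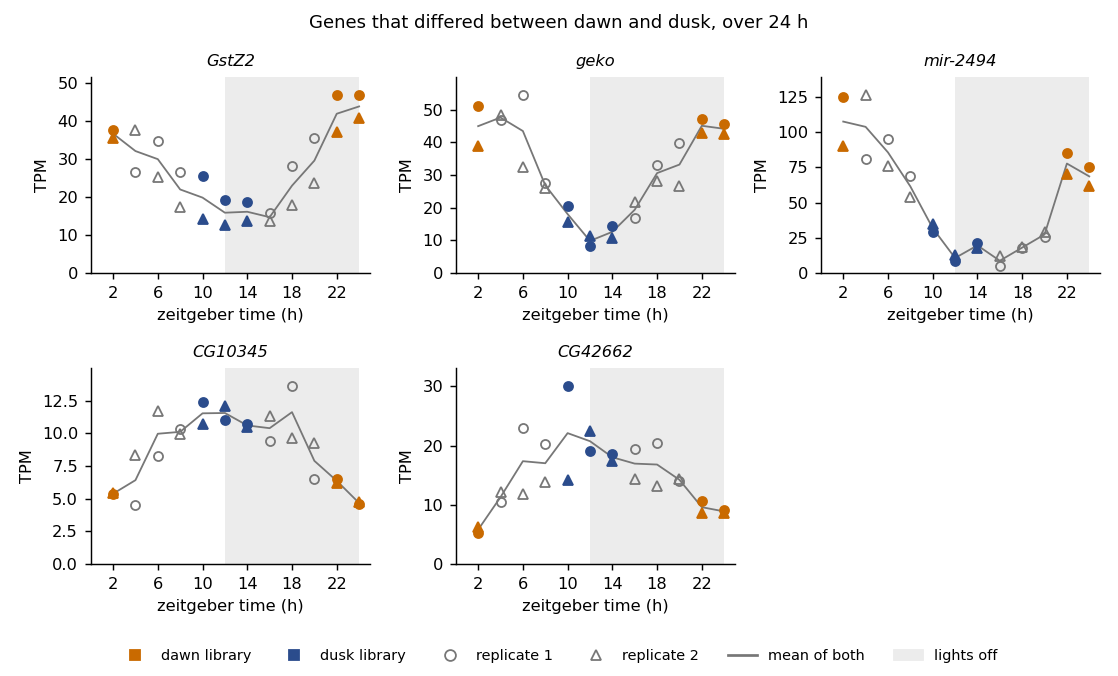
TPM of the 5 called genes at 12 zeitgeber times; filled points are dawn (orange) and dusk (blue) libraries, open points the hours between, circles replicate 1, triangles replicate 2, the line the mean of both, and grey the dark phase. For geko the mean of both replicates was lowest at ZT12 (9.88 TPM) and highest at ZT4 (47.6), whereas for CG10345 it was lowest at ZT24 (4.68) and highest at ZT18 (11.6).

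The 12 libraries of the hours between, which entered the filter but not the test, showed where the levels turned. For GstZ2, the mean of both replicates was highest at ZT24 (43.8 TPM) and lowest at ZT16 (14.7). For mir-2494 it was highest at ZT2 (107 TPM) and lowest at ZT16 (8.81). For CG42662 it was lowest at ZT2 (5.83 TPM) and highest at ZT10 (22.1). The windows therefore caught geko and GstZ2 near both turning points, but the highest values of CG10345 ran on into the night.

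CG10096, a fatty acyl-CoA reductase, fell just outside the threshold and was named after its values were seen. It ranged from 15.0 to 26.9 TPM at dawn and from 2.39 to 14.8 at dusk. All of its exon bases are shared with CG10097, which was listed at 161 to 821 TPM, so the division of reads between them is the authors' estimate. Its difference was 1.57 (SE 0.25; limma adjusted p = 0.0514), against 0.0436 for CG42662 just inside.

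The core clock genes were then examined, as the known markers of time in this tissue. None of the 6 tested members passed the adjusted threshold. Vrille came closest: vri encodes the repressor of Clk. It was at 23.9 and 18.0 TPM at ZT22, 21.2 and 16.02 at ZT24, and 9.55 and 8.41 at ZT2. At dusk vri was at 37.3 and 24.4 TPM at ZT10, 49.2 and 33.1 at ZT12, and 57.0 and 38.4 at ZT14. Every dusk library lay above every dawn library, the lowest dusk value and the highest dawn value being close. The difference was −1.29 (SE 0.24; limma unadjusted p = 0.000218, adjusted p = 0.215), and it passed when light or dark was added as a covariate (−1.53, adjusted p = 0.00667).

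Timeless, the partner of Period, crossed within the dawn window. At ZT22 tim was at 92.8 and 73.5 TPM, at ZT24 at 57.1 and 51.2, and at ZT2 at 16.3 and 23.9. At dusk it was at 73.6 and 42.8 TPM at ZT10, 58.5 and 57.1 at ZT12, and 89.2 and 76.3 at ZT14. The ZT22 libraries were as high as the dusk libraries and the ZT2 libraries were below all of them. The fitted difference for tim was −0.52 (SE 0.39; limma adjusted p = 0.593), and without ZT2 and ZT14 it was 0.23.

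Pdp1, an activator of Clk, had means of 27.2 ± 10.7 TPM at dawn and 36.8 ± 7.15 at dusk (SD, n = 6 each), with a difference of −0.47 (SE 0.19; limma adjusted p = 0.535). The remaining members had smaller differences. The partner of Clock, cyc, had a difference of 0.11 (SE 0.17; limma adjusted p = 0.717), cry, the blue-light receptor, −0.04 (SE 0.14; adjusted p = 0.878), and cwo, a repressor of Clock targets, −0.16 (SE 0.10; adjusted p = 0.571). After scaling they were −0.0180 for cyc, −0.18 for cry and −0.29 for cwo (limma unadjusted p = 0.0242, adjusted p = 0.582). The signs for cyc, cry and tim turned under some alternatives, and that for cyc under scaling.

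The genes per and Clk had medians of 3.505 and 4.50 TPM over the 24 libraries, below the filter. In a fit over the 8977 features with a median above 1, per had a difference of −0.50 (SE 0.12; limma unadjusted p = 0.00117, adjusted p = 0.342). It ranged from 1.94 to 3.65 TPM at dawn and from 3.36 to 4.85 at dusk. Clk had a difference of 0.36 (SE 0.14; limma unadjusted p = 0.0291, adjusted p = 0.595).

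**Figure D3:**
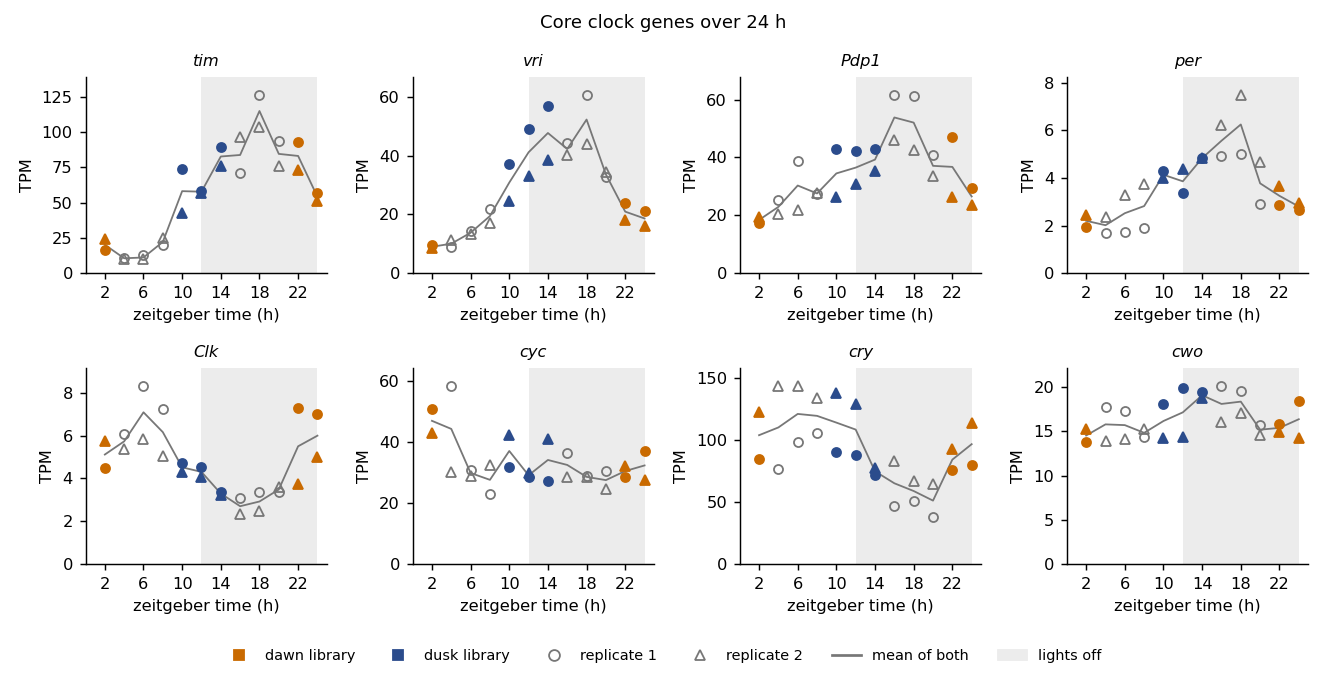
TPM of 8 core clock genes at 12 zeitgeber times, drawn as for the called genes. The mean of both replicates was highest at ZT18 for tim (115 TPM), vri (52.3) and per (6.25) and at ZT6 for Clk (7.08), so that dawn and dusk lie on the falling and rising sides of the tim curve.

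Lists of genes for clock output, metabolism, immunity and protein synthesis were described by how many members reached an unadjusted p below 0.05, beside 5.75% of all features at dawn and 3.11% at dusk, and by their median beside 0.13. Apart from GstZ2, no member of any of the 38 lists passed the adjusted threshold. No test of a list as a whole was made.

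Of 20 tested genes taken as clock output or as cyclers of the fly head, 8 were higher at dawn and 3 at dusk at the unadjusted threshold, with a median of 0.45. After scaling the counts were 6 and 4 and the median 0.33. Without replicate 1, where 1.29% and 1.01% of all features reached the threshold, they were 3 and 1. The list was drawn up with results of these data known, so it is not independent evidence. The UDP-glycosyltransferase Ugt35B1 had means of 23.2 ± 6.58 and 10.3 ± 5.84 TPM (difference 1.20, SE 0.28; limma adjusted p = 0.342). Smvt, a sodium-dependent vitamin transporter, had means of 88.7 ± 30.4 and 42.7 ± 28.4 TPM (1.22, SE 0.42; limma adjusted p = 0.488). AANAT1, an amine acetyltransferase, leaned to dusk, at 22.9 ± 4.52 and 36.0 ± 8.83 TPM (−0.62, SE 0.18; limma adjusted p = 0.379).

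Lipid genes leaned in both directions. Of 20 tested genes of fatty acid and triglyceride synthesis, 3 reached the unadjusted threshold at dawn and 2 at dusk, against 1 and 7 after scaling and 5 and 2 with the ovary marker covariate. The median was −0.09, and 0.09 with that covariate. The acyl-CoA synthetase gene pdgy was at 56.3 to 73.3 TPM at dawn and 37.2 to 52.0 at dusk, without overlap (0.45, SE 0.10; limma adjusted p = 0.313). The diacylglycerol acyltransferase gene mdy had means of 83.7 ± 28.4 and 51.6 ± 12.2 TPM (0.65, SE 0.23; limma adjusted p = 0.497). Desat1, the delta-9 desaturase, was at 2654 to 3014 TPM at dawn and 3037 to 4694 at dusk, again without overlap, in the other direction (−0.36, SE 0.10; limma adjusted p = 0.379).

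ELOVL, a fatty acid elongase gene named after its values were seen, showed the same order as Desat1. It was at 43.8 to 77.9 TPM at dawn and 88.4 to 115 at dusk (−0.64, SE 0.13; limma adjusted p = 0.226). Lsd-1, the lipid droplet protein perilipin 1, had means of 553.8 ± 115 and 734.9 ± 77.2 TPM (−0.43, SE 0.15; limma adjusted p = 0.488). In the other lists of stored fuel the unadjusted threshold was reached by 1 of 10 genes for lipolysis and lipid droplets, 0 of 16 for beta-oxidation, 0 of 16 for glycolysis and 1 of 10 for glycogen and trehalose. With the ovary marker covariate, where 5.15% of all features reached it at dawn and 2.68% at dusk, the counts at dawn were 1, 3, 5 and 4 in the same order.

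Of 9 genes of the pentose phosphate pathway and NADPH supply, 3 reached the unadjusted threshold at dusk and 0 at dawn, with a median of −0.15 and, after scaling, 4 and −0.29. Zw, glucose-6-phosphate dehydrogenase, the entry step of the pathway, was at 69.9 to 103 TPM at dawn and 89.1 to 148 at dusk (−0.44, SE 0.13; limma adjusted p = 0.388). Pgd, the next oxidative enzyme, had means of 304.0 ± 67.5 and 412.6 ± 117 TPM (−0.42, SE 0.15; limma adjusted p = 0.488). Men, malic enzyme, had means of 790.1 ± 131 and 994.4 ± 167 TPM (−0.33, SE 0.11; limma adjusted p = 0.488). The groups overlapped for each of them, and with the ovary marker covariate 0 of the 9 reached this threshold at dusk and 1 at dawn. The differences in that fit were −0.46 for Zw and −0.33 for Pgd, and the list median was −0.30.

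Detoxifying enzymes differed member by member. Of 23 glutathione S-transferases, GstZ2 was called, GstZ1 reached the unadjusted threshold at dawn and GstT4 at dusk, and the median was 0.02. GstT4, a theta-class member, was at 120 to 245.5 TPM at dawn and 268 to 301 at dusk, without overlap (−0.66, SE 0.14; limma adjusted p = 0.271). Of 11 UDP-glycosyltransferases, 3 reached the threshold at dawn and 2 at dusk. Ugt36D1 was at 49.2 to 62.1 TPM at dawn and 17.9 to 39.4 at dusk (0.90, SE 0.18; limma adjusted p = 0.226), and Ugt37D1 was at 6.93 to 11.01 and 12.5 to 24.5 TPM (−0.88, SE 0.18; limma adjusted p = 0.226). Both separated the groups, in opposite directions. With the ovary marker covariate, 5 of 46 cytochrome P450 genes reached the threshold at dawn and 1 at dusk. Without it 1 did at dawn and 4 at dusk, among them Cyp28d1 (−0.84, SE 0.24; limma adjusted p = 0.379).

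Genes of protein synthesis and folding were examined next. All 73 mitochondrial ribosomal proteins were above 0 in difference, 21 reached the unadjusted threshold at dawn and 0 at dusk, and the median was 0.23. After scaling 3 did and the median was 0.10, and 1 did with the ovary marker covariate or without replicate 1. An example is mRpL27 of the large subunit, with means of 47.6 ± 5.35 and 37.5 ± 5.52 TPM (0.34, SE 0.09; limma adjusted p = 0.379). In contrast 0 of the 85 cytosolic ribosomal proteins reached the threshold in either direction, with 27 above 0 and a median of −0.02, and 6 did at dusk after scaling and 3 with the ovary marker covariate.

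Of 17 aminoacyl-tRNA synthetases 5 reached the threshold at dawn, with a median of 0.29, against 3 and 0.16 after scaling and 0 with the ovary marker covariate. Of 20 genes of endoplasmic reticulum folding and secretion 7 did, with a median of 0.21, against 2 and 0.07 after scaling, 1 and 0.06 without replicate 1, and 6 and 0.36 with the ovary marker covariate. Hsc70-3, the chaperone BiP, had means of 295.6 ± 47.4 and 211.8 ± 39.6 TPM (0.48, SE 0.12; limma adjusted p = 0.379). Ribosome biogenesis had a higher median than all features, 0.28, with 1 of 27 genes past the unadjusted threshold, and its median was 0.14 after scaling and turned to −0.10 with the ovary marker covariate, when 0 did. Of 61 genes of oxidative phosphorylation 1 passed that threshold (median 0.08), of 32 of the proteasome 0 (median −0.04, and 6 at dusk after scaling), and of 18 of the vacuolar ATPase 0 (median 0.04, and 10 at dusk with the ovary marker covariate).

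Antimicrobial peptides stood high in a few of the dusk libraries. Of 8 tested, 5 reached the unadjusted threshold at dusk, and the median was −2.36. DptA, diptericin A, was at 517 TPM in ZT10 replicate 1 and 2465 in ZT14 replicate 1, at 1.17 to 11.4 in the other 4 dusk libraries, and at 0.76 to 6.14 at dawn (−2.80, SE 1.22; limma adjusted p = 0.550). AttC, an attacin, was at 276 and 1179 TPM in the same libraries (−3.02, SE 0.79; limma adjusted p = 0.379). Drs, another member, had means of 352.8 ± 325 and 359.9 ± 247 TPM (−0.27, SE 0.76; limma adjusted p = 0.847). Its highest value among the dawn and dusk libraries, 854 TPM, was at dawn. Without replicate 1, 2 of the 8 reached the threshold and the median was −0.62. The list median was 0.47 at 18°C, 0.04 on the 5% diet and −0.05 in Clk-Jrk. Bace, an aspartic peptidase named after its values were seen and below the filter, was at 421 TPM in ZT10 replicate 1, 1592 in ZT14 replicate 1 and 829 in ZT14 replicate 2, and at 0.38 to 6.88 in the remaining 9 dawn and dusk libraries. Outside these hours, the mean of both replicates at ZT6 was 429 TPM for DptA, 212 for AttC and 767 for Bace. High values were thus not confined to dusk. Among other secreted proteins, 3 of 11 serpins, inhibitors of serine proteases, reached the threshold at dusk, with a median of −0.18, against 1 and 0.01 with the ovary marker covariate. Yolk protein Yp2, which fat body and ovary both make, had means of 31247 and 26397 TPM (0.21, SE 0.19; limma adjusted p = 0.606).

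**Figure D4:**
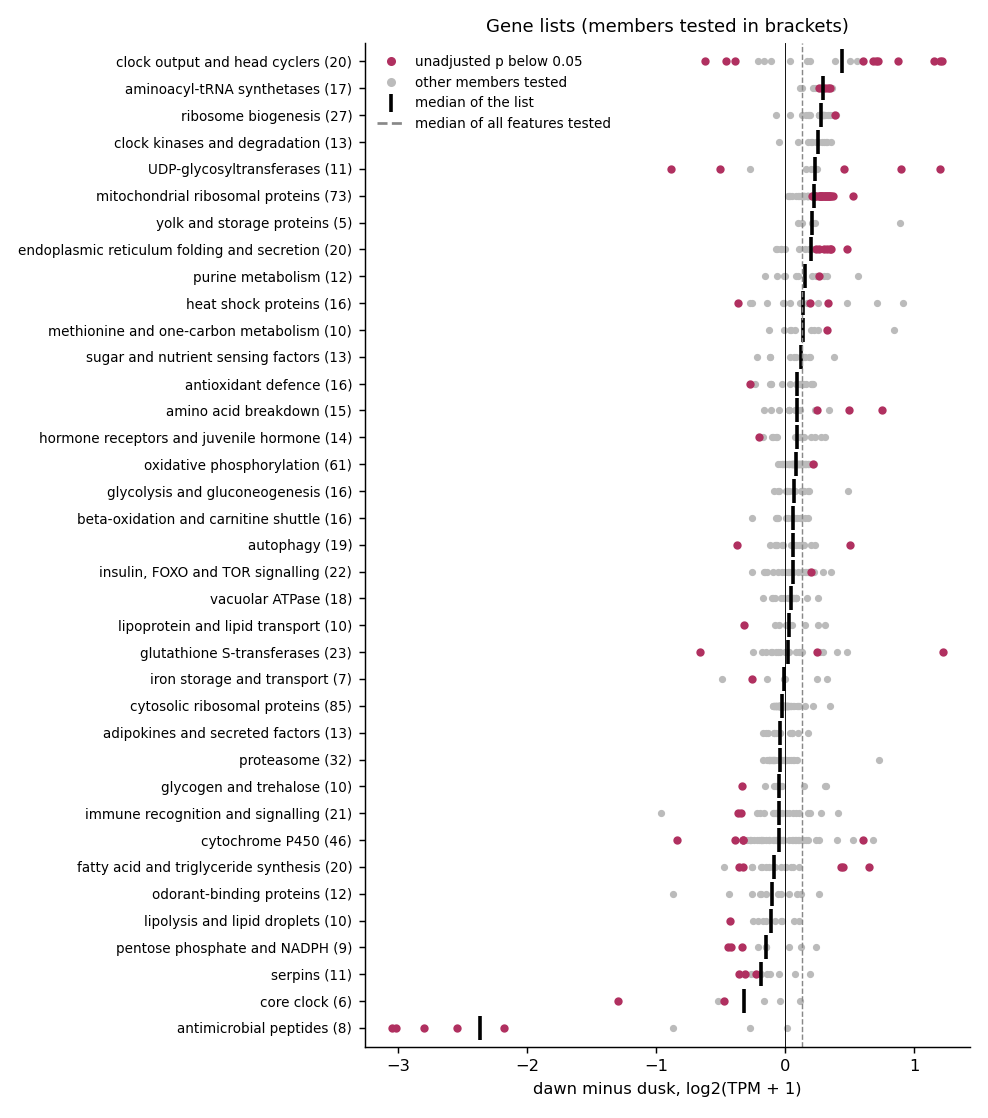
Dawn minus dusk on the log2(TPM + 1) scale for the tested members of each list with at least 5 such members; red points reached an unadjusted limma p below 0.05, black bars are list medians, and the dashed line is the median of all features, 0.13. Antimicrobial peptides lie apart at −2.36.

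The same contrast was fitted in the other settings, whose libraries are separate from these 12. The median difference over all features was −0.07 on the 5% diet, −0.06 at 18°C and −0.19 in Clk-Jrk, beside 0.13 here. Small differences and interactions are best read against these medians. On the 5% diet 4 genes were higher at dawn (0.0579%) and 5 at dusk (0.0724%), and 4 of the 5 genes called on the 15% diet were among them in the same direction. There geko had means of 52.6 ± 9.85 and 12.9 ± 1.56 TPM (1.94, SE 0.15; limma adjusted p = 1.49e-05). GstZ2 differed by 1.13 (SE 0.19; limma adjusted p = 0.0295), mir-2494 by 1.52 (SE 0.22; adjusted p = 0.0153) and CG10345 by −1.10 (SE 0.16; adjusted p = 0.0153). CG42662 differed by −0.77 (SE 0.15; limma adjusted p = 0.0797), which did not pass. The remaining calls on the 5% diet were CG10096 (1.95), vri (−1.50), ELOVL (−1.05), GstT4 (−0.85) and MtnD (−1.26), a metallothionein, and each had the same sign on the 15% diet.

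At 18°C 4 genes were higher at dawn (0.0579%) and 6 at dusk (0.0868%), and none of the 5 was among them. The difference of geko was 1.19 (SE 0.27; limma adjusted p = 0.157), that of GstZ2 0.82 (SE 0.20; adjusted p = 0.165) and that of CG10345 −0.45 (SE 0.19; adjusted p = 0.374). Among the genes called at 18°C were tim (−2.38, SE 0.26; limma adjusted p = 0.00551) and vri (−1.65, SE 0.20; adjusted p = 0.00810). At 18°C tim ranged from 11.9 to 39.9 TPM at dawn and from 81.7 to 126.5 at dusk, with no overlap.

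In Clk-Jrk, with 4 libraries against 4, no gene was called in either direction (limma; 68 features, 0.984%, at dawn and 221, 3.2%, at dusk at an unadjusted p below 0.05). The levels of the dawn genes were high at both times. For geko the means were 55.3 ± 12.5 TPM at dawn and 51.6 ± 5.26 at dusk (SD, n = 4 each; 0.08, SE 0.20), for GstZ2 58.4 ± 9.06 and 61.9 ± 9.20 (−0.08, SE 0.17), and for mir-2494 199 ± 35.9 and 212 ± 21.8 (−0.10, SE 0.18). CG10345 was at 6.49 ± 2.03 and 6.30 ± 1.32 TPM (0.01, SE 0.17), near its wild-type dawn level. In these libraries vri was at 1.66 to 5.71 TPM and tim at 1.57 to 5.70.

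The difference between settings was tested with an interaction term. At adjusted p below 0.05 no feature had a dawn-dusk difference that differed from that at 18°C, on the 5% diet or in Clk-Jrk (limma; 572, 196 and 419 features, 8.28%, 2.84% and 6.06%, at an unadjusted p below 0.05). Against Clk-Jrk, over the hours that both hold, the smallest p-values were those of mir-2494 (interaction 1.91, SE 0.31; limma unadjusted p = 3.94e-05), geko and GstZ2. For geko the interaction was 1.44 (SE 0.26; limma unadjusted p = 8.32e-05) and for GstZ2 1.20 (SE 0.22; limma unadjusted p = 0.000124). The limma adjusted p was 0.263 for each of the 3. The wild-type libraries in this fit were also used to call these 3 genes. Their rank here is therefore not independent of that call. Against 18°C tim differed by 1.86 (SE 0.49; limma unadjusted p = 0.000968, adjusted p = 0.318). These differences were large beside their SE but did not pass, so a loss of the dawn-dusk difference in Clk-Jrk is described by the means above and was not shown by the test.

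**Figure D5:**
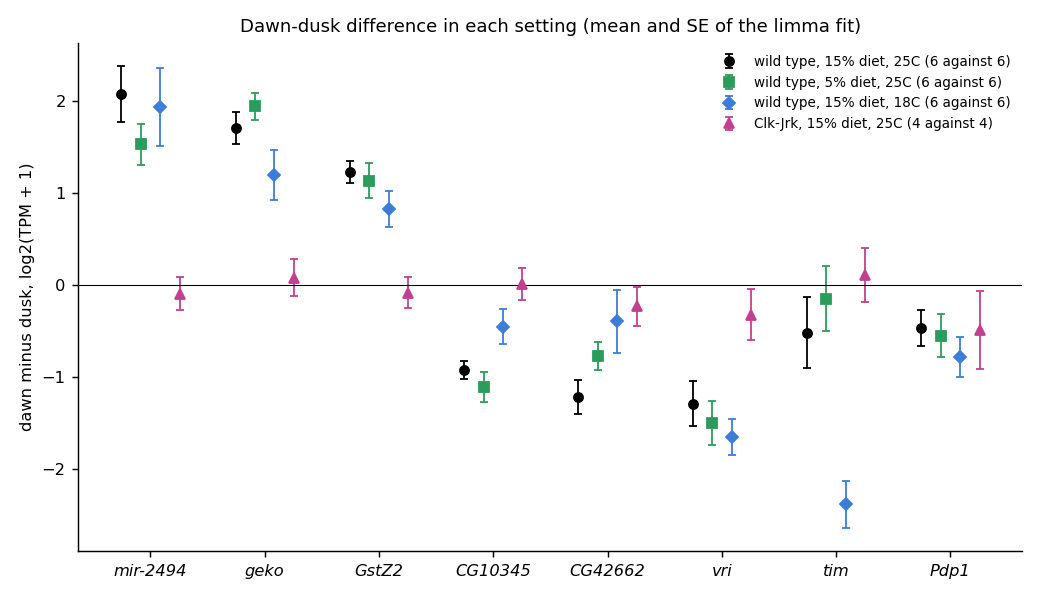
Dawn minus dusk on the log2(TPM + 1) scale (points, limma estimate; bars, SE) for the 5 called genes and 3 clock genes in 4 settings, with 6 libraries against 6 in wild type and 4 against 4 in Clk-Jrk. In Clk-Jrk mir-2494, geko, GstZ2 and CG10345 lie within 0.1 of 0, and tim reaches −2.38 at 18°C. The Clk-Jrk value of CG42662 is drawn but not stated in the text.

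The smallest interaction p-values against 18°C belonged to CG10469, CG8665 and CG14696. CG10469, a serine protease homologue, had a difference of 1.03 at 25°C and −0.98 at 18°C (interaction 2.01, SE 0.38; limma adjusted p = 0.187). Against the 5% diet they belonged to the eggshell genes Vml and Vm26Ac and to a small nucleolar RNA. Vml, a vitelline membrane protein, was at 92.4 to 292 TPM at dawn, and at dusk at 69.8 and 133 in replicate 1 of ZT10 and ZT14 and at 0.13 to 11.1 in the other 4 libraries. Its difference was 3.86 (SE 0.83; limma adjusted p = 0.271) on the 15% diet and −1.70 on the 5% diet. On the 15% diet it was 1.70 with the ovary marker covariate, 5.96 without replicate 1 and 1.75 without replicate 2. The summed ovary markers on the 5% diet ranged from 51.5 to 930 TPM at dawn and from 12.0 to 1763 at dusk.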

How the data were processed

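RNA of abdominal fat bodies of female flies was sequenced as poly(A)-selected, single-end libraries. The authors trimmed reads with Atropos, aligned them with STAR 2.7.10a to the Ensembl BDGP6 reference and quantified them with RSEM 1.3.1 without regard to strand. Their removal of duplicate reads is described only for paired-end libraries of another experiment. STAR and RSEM versions are from the submitters' processing notes. The values the authors deposited are TPM, scaled within each library and holding no read counts, so the depth and counting error of each library are unknown.

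Samples were grouped by the genotype, diet, temperature and time in their labels. The sample titles give ZT2 to ZT24, whereas the protocol text gives ZT0 to ZT22, and the titles were used. Features with a median TPM above 5 over the 24 wild-type libraries at 25°C on the 15% diet were kept. Dawn minus dusk was fitted with limma 3.58.1 in R 4.3.3 on log2(TPM + 1), with the replicate number as a block and Benjamini-Hochberg adjustment over all 6909 features at a threshold of 0.05. Differences between settings were fitted as interactions. The script was tested on simulated data.

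The comparison and the gene lists were chosen with earlier results of these data known. Genes were named by a rule: the core clock genes, up to 10 called genes per direction with the same sign in all 6 replicate-and-position pairs, up to 3 called genes per list and direction or else the member with the smallest p, and the 3 smallest p-values of each interaction. Genes outside it were chosen after their values were seen, and these include the list members given beside those the rule named. Positions are from Ensembl release 115 of BDGP6, a later release than the authors used. Of 17869 FlyBase genes in the table, 17790 were in the name table. Alternatives were another pseudocount, filter, scaling, covariate or threshold, no replicate block, and libraries, hours or a replicate left out.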

Additional observations from a re-analysis of the deposited data

Results flagged for a closer look

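Of 110 groups of 6 libraries examined (the dawn and dusk libraries of 55 named genes), 3 held a library that stood apart by Dixon's criterion, and chance alone gives about 1 in 20. For Hsp60A, a mitochondrial chaperonin, the dawn library ZT22 replicate 1 was at 141 TPM, below the next at 219, a gap of 0.733 of the group's range. For Eip55E, a cystathionine gamma-lyase gene, the same library was lowest, at 66.4 TPM against 82.0 (0.672 of the range). For CG10469, the dusk library ZT10 replicate 1 was highest, at 34.0 TPM against 12.6 (0.673 of the range). The same ZT10 library held the second highest DptA value among the dawn and dusk libraries, 517 TPM.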

How the results depend on the processing

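Across the alternatives GstZ2, geko, mir-2494, CG10345 and CG42662 kept their directions. Leaving out libraries could not turn these directions, because each gene separated all dawn from all dusk libraries. The counts of calls did not hold. The number of genes higher at dusk was 1 in place of 2 with log2(TPM + 0.1), after scaling by the median of ratios, with a median TPM above 1 or above 10, without a filter on low values and at adjusted p below 0.01. With a median TPM above 10, CG10345 itself fell below the filter. The dawn calls moved too. At dawn mir-2494 was not called with log2(TPM + 0.1), a median TPM above 1, no filter or adjusted p below 0.01. CG10096 was called as well with log2(TPM + 5) and with a median TPM above 10. Without ZT22 and ZT10 the counts were 1 at dawn and 0 at dusk. They were 0 and 0 without ZT24 and ZT12, without ZT2 and ZT14, and with the ovary marker covariate, which was chosen after the data were seen. Leaving out a replicate or a single library gave 0 to 3 genes at dawn and 0 to 2 at dusk. Fewer libraries entered those fits. Without the replicate block the counts stayed at 3 and 2. Same-numbered libraries of dawn and dusk deviated together in 8 of 9 pairs of hours at a correlation above 0.1 (0.039 to 0.53), and the second principal component, with 23.1% of the variance, separated the 2 replicate numbers. Without replicate 1, 5 genes in place of 0 had a dawn-dusk difference that differed between wild type and Clk-Jrk (CG16826, CG45080, whe, lcs and CG34212). Their differences in that fit were 5.72 to 7.49 in wild type and −0.40 to 0.30 in Clk-Jrk. The cause was not tested.

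The sign of 3 clock genes turned, and none of them passed in any of these fits. The difference of cyc was −0.0180 after scaling, −0.0642 without ZT2 and ZT14, −0.14 without replicate 1, −0.13 with the ovary covariate and −0.0066 without ZT2 replicate 1, and leaving out replicates or libraries gave −0.14 to 0.37. That of cry was 0.0808 with light phase as a covariate and 0.0789 with the ovary covariate. It was 0.0184 without ZT24 and ZT12 and 0.14 without ZT22 and ZT10. It was 0.0096, 0.0256 and 0.0050 without ZT22 replicate 2, ZT10 replicate 2 and ZT12 replicate 2. Leaving out a replicate or a single library gave −0.16 to 0.0256 for cry. The difference of tim was 0.23 without ZT2 and ZT14 and 0.18 with the ovary covariate. TPM gives no counting error, so genes near the filter cannot be weighed by depth.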

Other observations

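GstZ2 belongs to the same family as GstZ1. The steps of tyrosine breakdown were looked up after the values of GstZ2, Hpd and hgo were seen. The values of those genes are thus part of the choice and not a separate finding. The difference at dawn was 0.75 (SE 0.20; limma unadjusted p = 0.00290) for Hpd, 4-hydroxyphenylpyruvate dioxygenase, with means of 176 ± 54.8 and 107 ± 39.7 TPM (SD, n = 6 each). It was 0.50 (SE 0.14; limma unadjusted p = 0.00372) for hgo, homogentisate dioxygenase, and 0.25 (SE 0.11; limma unadjusted p = 0.0499) for GstZ1. It was 0.11 (SE 0.12) for Tat and 0.48 (SE 0.20) for CG1461, both aminotransferase genes. It was 0.03 (SE 0.13; limma unadjusted p = 0.823) for Faa, fumarylacetoacetase, the last step. Apart from GstZ2 none passed the adjusted threshold (limma, smallest adjusted p 0.379). On the 5% diet the difference of Hpd was 0.35 (SE 0.22) and that of hgo 0.26 (SE 0.17). At 18°C the difference of Hpd was −0.01 (SE 0.19) and that of hgo 0.21 (SE 0.17). In Clk-Jrk Hpd had means of 313 ± 35.4 and 374 ± 57.0 TPM (SD, n = 4 each) and hgo 107 ± 15.2 and 121 ± 25.1.

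CG10345, higher at dusk, and mir-2494, higher at dawn, lie 13905 bases apart on 3R, and the genes between them were also examined after the fact. CG17562, a fatty acyl-CoA reductase family gene 1612 bases from mir-2494, had means of 142 ± 27.4 and 91.7 ± 30.1 TPM (0.68, SE 0.24; limma adjusted p = 0.488). CG10340 had means of 57.1 and 48.9 TPM (0.22, SE 0.08; limma adjusted p = 0.504). NPF and CG12783 were below the filter. Beyond them Fas1, a cell adhesion gene, had a difference of 0.36 (SE 0.22; limma adjusted p = 0.571).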
